A study of Rattus norvegicus with 6 samples.

Results

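Vimentin and tubulin genes form the set described here: Vim, the alpha-tubulin genes Tuba1a, Tuba1b and Tuba1c, the beta-tubulin genes Tubb5 and Tubb6, and Stmn1, which encodes stathmin. The members were taken by symbol from the deposited gene table, which held all 7 of them among its 17143 entries. All 7 also passed the filter on low values, which left 7284 genes for testing. Messenger RNA was measured in the established rat fibroblast line Rat-1, with cells lysed 4 h after seeding at 25000 cells per well. The 6 libraries comprised 2 from cells on native extracellular matrix (ECM), 2 from cells on ECM remodelled by MMP1 and 2 from cells on ECM remodelled by MMP13, where MMP1 and MMP13 are secreted collagenases. All groups shared the cell line, the medium and the time point, and only adherent cells were lysed. The labels call the samples duplicates without saying whether they came from separate cultures, so p-values measure the spread between these libraries alone, and that spread may be technical.

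Microtubules are hollow polymers of alpha- and beta-tubulin dimers, whereas vimentin assembles into intermediate filaments and is the main filament protein of this class in fibroblasts and other mesenchymal cells. Cells hold free tubulin within limits partly by degrading tubulin messenger RNA when unpolymerised dimers accumulate. Stathmin binds tubulin dimers and favours microtubule shortening. Both filament systems are rearranged as fibroblasts attach to a matrix and spread.

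Libraries held between 161817 and 362122 reads, recovered from the normalised values as whole reads. Values are given in units, meaning reads divided by the authors' size factor of the library, and 1 read was worth between 0.735 and 1.68 units. Because each read of a 3' end library stands for the end of a transcript, values were not divided by gene length, and levels of different genes are set side by side only as this table gives them. All 10 fibroblast markers had reads in each library and together took between 2.53% and 2.74% of reads. Among them Postn had only 1 to 8 reads a library and Col3a1 4 to 28. Marker lists of neurons, leukocytes, epithelium, endothelium and muscle took at most 0.0141% each, and Laptm5, Tyrobp, Epcam, Tie1 and Cldn5 had no read in any library. Other markers of these lists did have reads throughout. Dcx of the neuron list had 6 to 33 reads a library, and Krt8 of the epithelial list had 4 to 22. Reads assigned to Rn45s, whose name is that of the precursor of ribosomal RNA, made up 0.293% and 0.347% of all reads on native matrix, 0.661% and 0.936% on MMP1-remodelled matrix and 0.692% and 0.968% on MMP13-remodelled matrix.

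The stretches before the gene starts of the alpha-tubulin genes and of Stmn1 are shown because the values below turn on Tuba1c set against its close relatives Tuba1a and Tuba1b, and on Stmn1. Each is the 150 bases that end just before the annotated start, from RefSeq on the build GRCr8, which differs from the build rn5 of the deposited table. Capitals mark matches on either strand to TATAA, to CCAAT, to GGGCGG (the GC box) and to CACGTG (an E-box).
Tuba1a, chr7:131995820-131995969, minus strand: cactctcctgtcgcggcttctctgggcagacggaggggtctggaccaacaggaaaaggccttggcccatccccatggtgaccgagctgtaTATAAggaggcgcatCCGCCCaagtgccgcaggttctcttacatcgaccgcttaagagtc
Tuba1b, chr7:131972588-131972737, minus strand: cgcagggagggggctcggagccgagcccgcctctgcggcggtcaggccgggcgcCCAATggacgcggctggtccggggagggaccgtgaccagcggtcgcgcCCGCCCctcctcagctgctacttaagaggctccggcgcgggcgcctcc
Tuba1c, chr7:132070834-132070983, plus strand: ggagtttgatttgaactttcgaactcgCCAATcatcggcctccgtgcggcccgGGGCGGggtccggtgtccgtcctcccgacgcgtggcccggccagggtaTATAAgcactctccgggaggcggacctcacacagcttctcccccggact
Stmn1, chr5:151965029-151965178, plus strand: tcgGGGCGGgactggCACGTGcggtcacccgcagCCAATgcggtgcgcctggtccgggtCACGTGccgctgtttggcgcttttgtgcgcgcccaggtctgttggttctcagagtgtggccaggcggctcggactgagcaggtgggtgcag

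Of the 7 members, 6 held CCAAT in this window and 6 held GGGCGG, against 23.7% and 27.8% of the 27457 windows of the same length in the table. TATAA was found in the windows of Vim, Tuba1a and Tuba1c, that is in 3 members, and in 15.5% of all windows. CACGTG was found in Tubb5 and Stmn1, against 3.93% of all windows. These matches describe letters only, and the 3' end reads analysed here do not show where transcripts start. In the GRCr8 gene table the annotated span of Tuba1c as a whole gene begins far before the start used for its window above, and it contains the spans of Tuba1a and Tuba1b. The window of Tuba1c thus belongs to a start inside that span, and which start was used in these cells was not tested. The annotation that the authors counted on is not given in the sources used here, so whether reads of these 3 similar genes were divided among them, or counted for a neighbour, was not tested. No other entry of the table carried the same reads as a member in all 6 libraries.

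**Figure D1:**
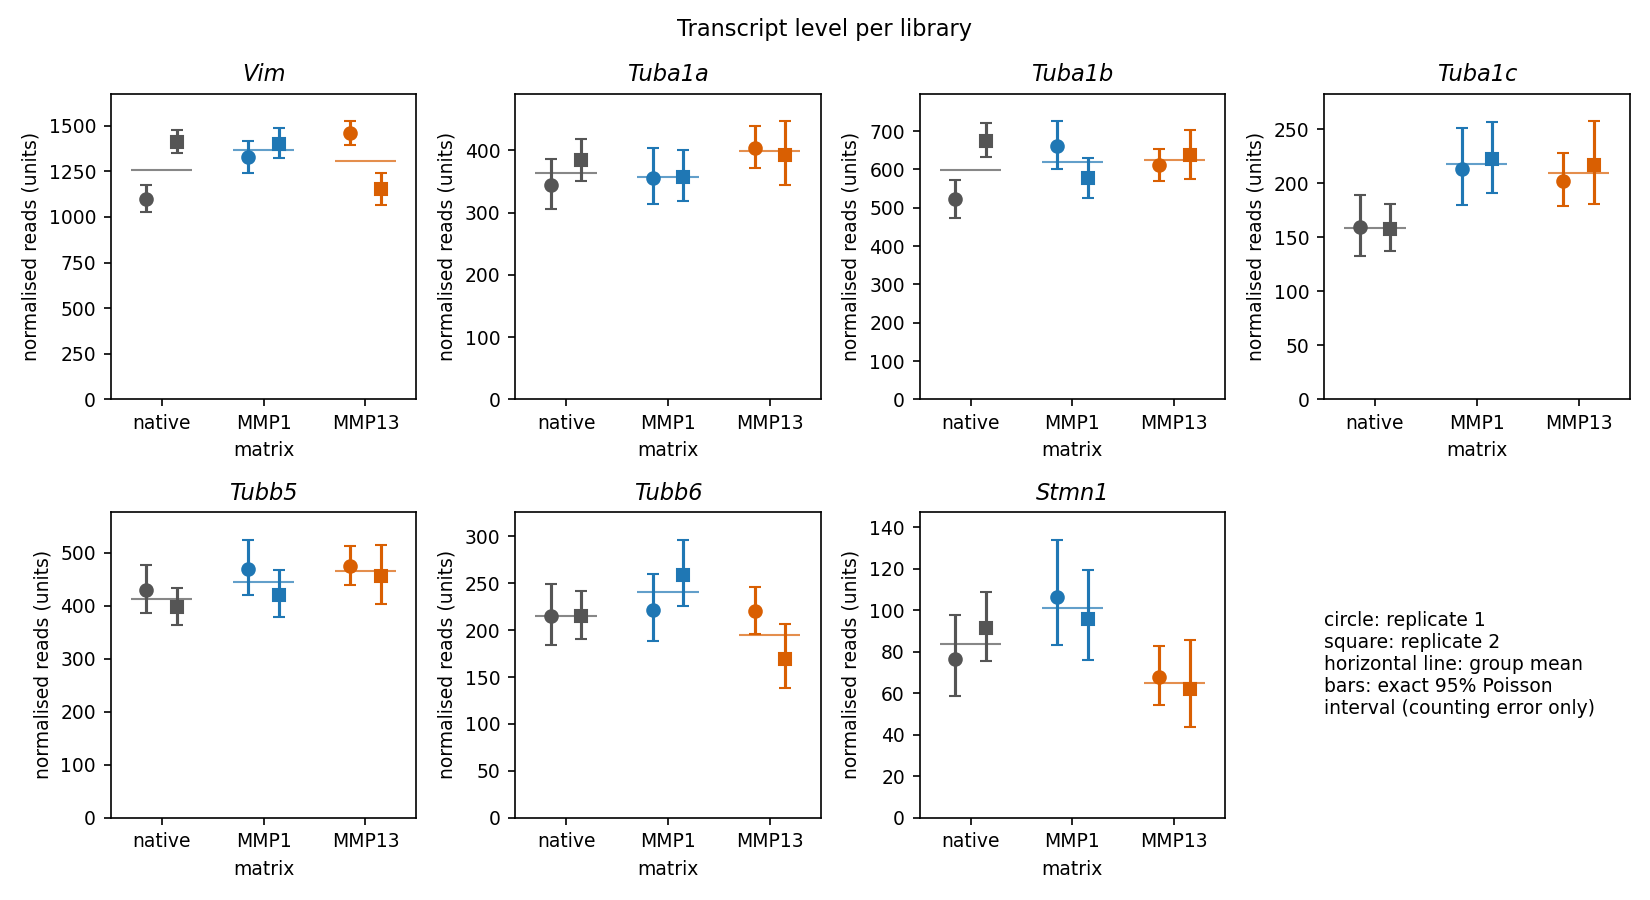
Level of each of the 7 genes in units (y axis, from 0) in the 6 libraries by matrix (x axis). Points are libraries, horizontal lines group means and bars exact 95% Poisson intervals for counting error. Both Tuba1c values on each remodelled matrix lie above both native ones, and the Stmn1 values are highest on MMP1-remodelled and lowest on MMP13-remodelled matrix.

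None of the 7 members passed the test in any of the 3 comparisons. The test was limma on log2(value + 1) over all 7284 genes, with a call at a Benjamini-Hochberg adjusted p under 0.05. Over all genes it called 0.151% on MMP1-remodelled against native matrix, 0.412% on MMP13-remodelled against native matrix and 0.0412% between the remodelled matrices. At an unadjusted p under 0.05 by limma, 1 member differed in each comparison. It was Tuba1c in both comparisons with native matrix and Stmn1 between the remodelled matrices. Over all 7284 genes 8.24%, 8.05% and 5.22% did so in the same order of comparisons. Tested on the recovered reads, edgeR and DESeq2 also called 0 members in each comparison. At an unadjusted p under 0.05, edgeR gave the same 1 member in each comparison. DESeq2 gave Tuba1c against native on MMP1-remodelled matrix, 0 members on MMP13-remodelled matrix and Stmn1 between the remodelled matrices. The shares over all genes at that threshold were not counted for edgeR and DESeq2.

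Vim was the most abundant member. It stood at 1099 and 1411 units in the native libraries, at 1326 and 1402 units on MMP1-remodelled matrix and at 1458 and 1152 units on MMP13-remodelled matrix. The groups overlapped, and the spread within the native and MMP13 groups was wider than any difference between group means, which were 1255 ± 221, 1364 ± 53.7 and 1305 ± 217 units (SD, n = 2 each). The exact 95% Poisson intervals of the native libraries did not overlap, at 1028 to 1173 units in replicate 1 and 1348 to 1477 units in replicate 2. They are too narrow if reads of 1 molecule were not collapsed, and the part of counting error in that spread was not tested. Vim ranked as the fifth or the sixth highest entry of the table in every library, and its 7519 reads in all were the most of any member. The log2 fold of Vim was 0.13 on MMP1-remodelled matrix (95% interval -0.06 to 0.32) and 0.06 on MMP13-remodelled matrix (-0.13 to 0.25), with adjusted p of 0.76 and 0.93 by limma. These intervals take their error from genes of like level. With the gene's own residual error they ran from -0.52 to 0.78 and from -0.59 to 0.71, and both folds changed sign with quantile normalisation, to -0.14. In each group the higher Vim value belonged to the deeper library. The depths were 347618 against 219775 reads on native, 225105 against 184061 on MMP1-remodelled and 362122 against 161817 on MMP13-remodelled matrix. The part of depth in this spread was not tested. In bulk samples such as these, fewer cells carrying a transcript and less of it per cell cannot be told apart.

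Tuba1b, one of the widely expressed alpha-tubulin genes, was the second most abundant member. It stood at 521 and 675 units on native matrix, at 662 and 576 units on MMP1-remodelled matrix and at 611 and 636 units on MMP13-remodelled matrix. The native libraries enclosed all 4 others. Against native matrix limma gave a log2 fold of 0.06 on MMP1-remodelled matrix (95% interval -0.19 to 0.30) and 0.07 on MMP13-remodelled matrix (-0.17 to 0.32). As for Vim, the gene's own error was wider, from -0.49 to 0.61 on MMP1-remodelled matrix.

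Tuba1a encodes a further alpha-tubulin of nearly the same sequence and is best known from developing neurons. It had the smallest ratio of highest to lowest library among the members (1.18), with 344 and 384 units on native matrix, 356 and 358 units on MMP1-remodelled matrix and 404 and 393 units on MMP13-remodelled matrix. Both MMP13 values lay above the other 4, by little. Its log2 fold was -0.03 on MMP1-remodelled matrix (95% interval -0.32 to 0.27) and 0.13 (-0.16 to 0.43) on MMP13-remodelled matrix. Between the remodelled matrices it was 0.16 (-0.14 to 0.45), with an adjusted p of 1.00 by limma.

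Tuba1c, the least abundant of the 3 alpha-tubulin genes, had the largest fold of the members against native matrix in both comparisons. It stood at 159 and 158 units in the native libraries, at 213 and 222 units on MMP1-remodelled matrix and at 202 and 217 units on MMP13-remodelled matrix. The 4 libraries from remodelled matrix lay above both native libraries, while those of MMP1 and MMP13 overlapped. Against native matrix the log2 fold reached 0.45 on MMP1-remodelled matrix (SE 0.19, 95% interval 0.08 to 0.83) and 0.40 (SE 0.19, 0.02 to 0.77) on MMP13-remodelled matrix, with adjusted p of 0.45 and 0.57 by limma. At this standard error a log2 fold of 0.78 and 0.71, respectively, would have passed. Between the remodelled matrices it was -0.06 (-0.43 to 0.32). Each library of the groups compared was also left out in turn. The log2 folds against native then lay between 0.43 and 0.48 on MMP1-remodelled and between 0.35 and 0.45 on MMP13-remodelled matrix. The replicates lay closer than the trend assumes, with a standard error from the gene's own residuals of 0.05. Rn45s was also higher in all 4 libraries from remodelled matrix, and its part in the Tuba1c values was not tested.

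Shares within the alpha-tubulin trio do not depend on the scaling between libraries. Of the reads on Tuba1a, Tuba1b and Tuba1c together, Tuba1c took 15.5% (95% Wilson interval 13.3% to 18.1%, of 843 reads) and 13.0% (11.4% to 14.7%, of 1612 reads) on native matrix. On MMP1-remodelled matrix the shares were 17.3% (14.9% to 20.02%) and 19.2% (16.8% to 21.8%), and on MMP13-remodelled matrix 16.6% (14.9% to 18.5%) and 17.4% (14.8% to 20.3%). The native shares were the lowest, but the interval of native replicate 1 overlapped those of all 4 libraries from remodelled matrix. Such intervals and the Poisson intervals above cover counting error only. It is not stated whether reads of 1 molecule were collapsed, and if they were not, these intervals are too narrow. Tuba1b held about the same part throughout, between 49.8% and 55.5%, and Tuba1a between 28.9% and 33.6%.

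**Figure D2:**
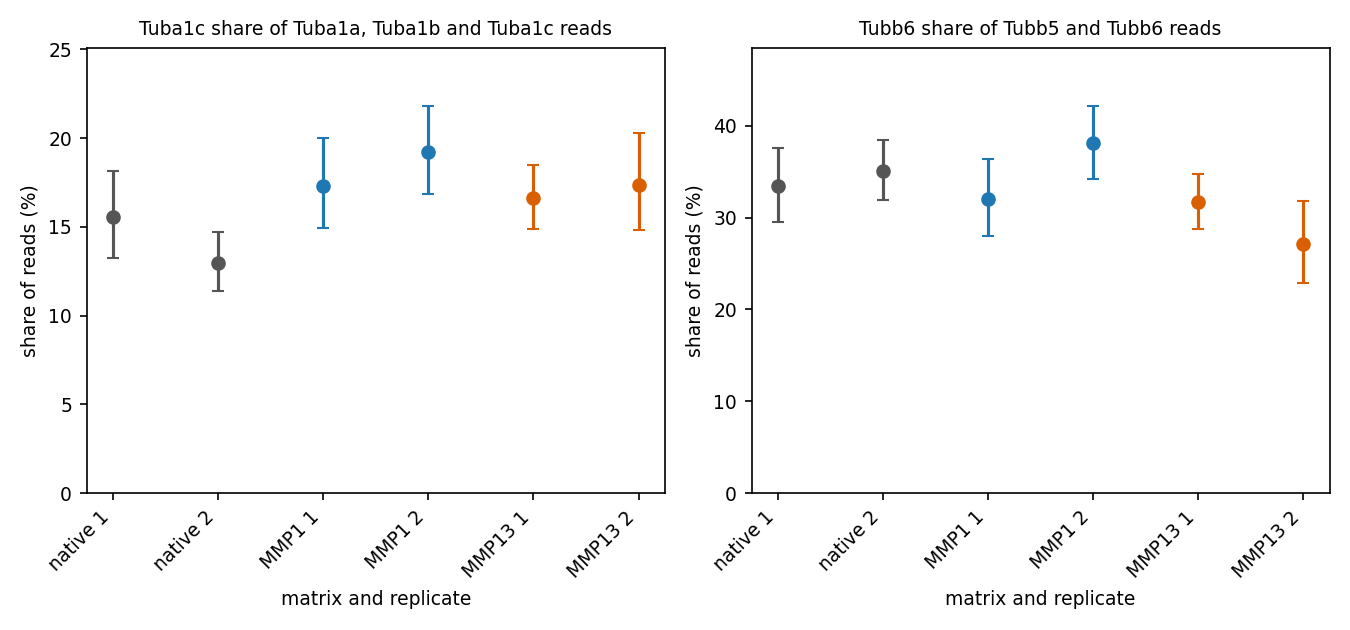
Share of reads in percent (y axis, from 0) taken by Tuba1c among the 3 Tuba1 genes and by Tubb6 among Tubb5 and Tubb6, in each library (x axis), with 95% Wilson intervals. The Tuba1c shares are 13.0% and 15.5% on native matrix and 16.6% to 19.2% on the remodelled matrices, and the lowest Tubb6 share is that of MMP13 replicate 2.

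Among the beta-tubulin genes, Tubb5 encodes a widely expressed isotype. It stood at 429 and 398 units on native matrix, at 470 and 421 units on MMP1-remodelled matrix and at 474 and 457 units on MMP13-remodelled matrix. The MMP13 libraries lay above the native ones and overlapped with those of MMP1. Set against native matrix, Tubb5 had a log2 fold of 0.11 on MMP1-remodelled matrix (95% interval -0.17 to 0.38) and 0.17 on MMP13-remodelled matrix (-0.10 to 0.45), with adjusted p of 0.89 and 0.82 by limma.

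Tubb6 encodes a more divergent beta-tubulin isotype. Its native values were nearly equal, at 215.2 and 215.1 units, and it stood at 222 and 259 units on MMP1-remodelled and at 219.9 and 169.6 units on MMP13-remodelled matrix. Both MMP1 values lay above the other 4, and the lowest value, from MMP13 replicate 2, rested on 101 reads. Tubb6 had a log2 fold of 0.16 on MMP1-remodelled matrix (95% interval -0.20 to 0.52) and -0.15 (-0.51 to 0.21) on MMP13-remodelled matrix. Without MMP13 replicate 2 the latter was 0.032. Between the remodelled matrices it was -0.31 (-0.67 to 0.05, adjusted p of 0.99 by limma). Of the reads on Tubb5 and Tubb6, Tubb6 took 33.4% and 35.1% on native, 32.1% and 38.1% on MMP1-remodelled and 31.7% and 27.1% on MMP13-remodelled matrix.

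Stmn1 had the lowest level of the members, with 466 reads over the 6 libraries. It stood at 76.6 and 91.3 units on native matrix, at 107 and 96.0 units on MMP1-remodelled matrix and at 67.7 and 62.1 units on MMP13-remodelled matrix. The 3 groups did not overlap, with MMP1 above native and MMP13 below it. The exact 95% Poisson intervals did overlap between neighbouring groups, for example 75.8 to 109 units in native replicate 2 and 76.1 to 120 units in MMP1 replicate 2. Its log2 fold was 0.27 on MMP1-remodelled matrix (SE 0.27, 95% interval -0.25 to 0.80) and -0.36 (SE 0.27, -0.89 to 0.16) on MMP13-remodelled matrix, with adjusted p of 0.82 and 0.79 by limma. Between the remodelled matrices it was -0.63 (SE 0.27, -1.16 to -0.11), where 64.9 ± 3.9 units on MMP13-remodelled stood against 101 ± 7.5 units on MMP1-remodelled matrix (SD, n = 2 each). The adjusted p was 0.82 by limma, and a log2 fold of 1.14 would have passed at this standard error. Leaving out each library of these remodelled matrices in turn gave log2 folds between -0.71 and -0.56.

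**Figure D3:**
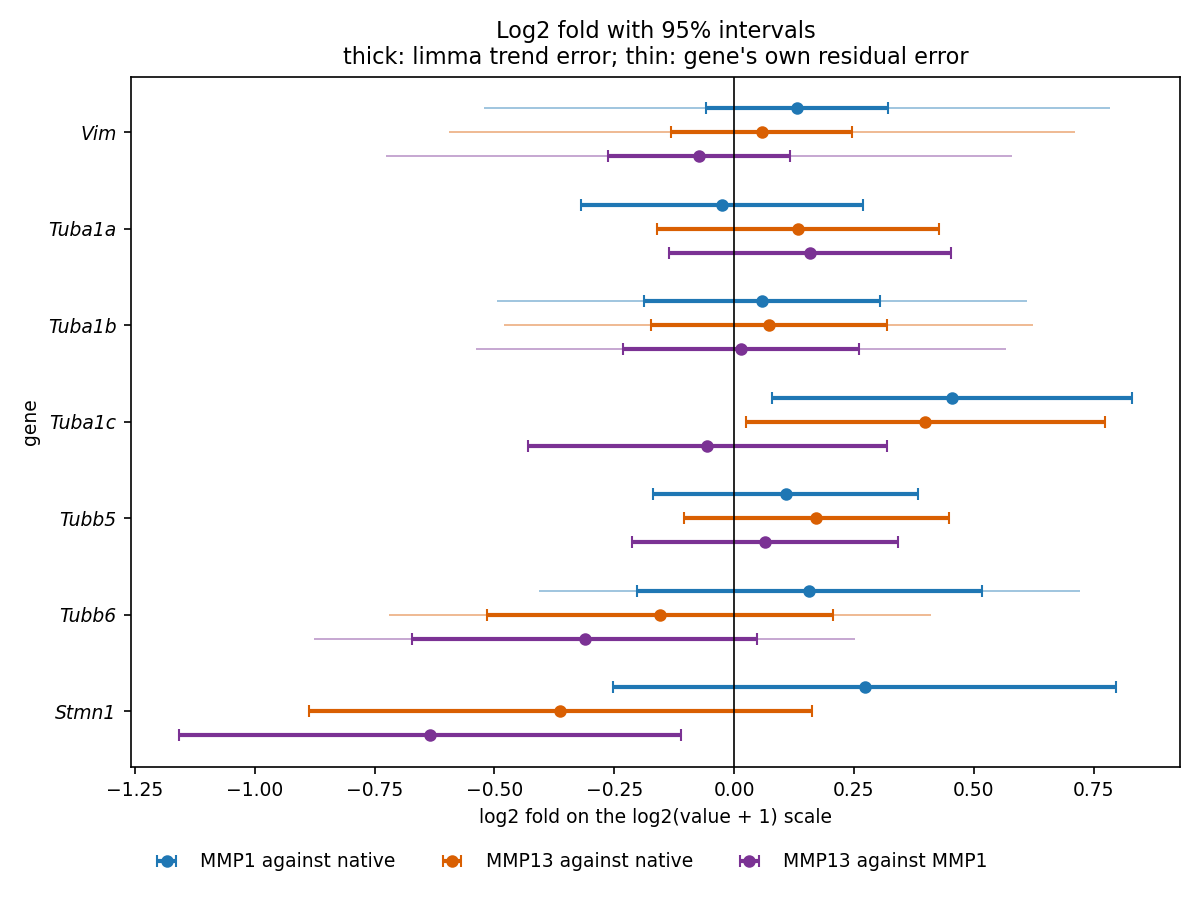
Log2 fold on the log2(value + 1) scale (x axis) of each gene (y axis) in the 3 comparisons. Thick bars are 95% intervals with limma's trend error, and thin lines the intervals with the gene's own residual error where these are longer. The thick bars of Tuba1c against native and of Stmn1 between the remodelled matrices leave out 0, and no adjusted p is under 0.05.

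Counted by libraries alone, Tuba1c, Tubb6 and Stmn1 did not overlap with native matrix on the MMP1-remodelled one, all 3 higher. Among all tested genes 19.6% lay higher without overlap there and 18.8% lower, and 0 members lay lower. On MMP13-remodelled matrix Tuba1a, Tuba1c and Tubb5 lay above native without overlap and Stmn1 below, where 18.9% and 18.6% of all tested genes did. Between the remodelled matrices Tuba1a lay higher on MMP13 and Tubb6 and Stmn1 lower, against 15.9% and 15.4% of all tested genes. No test was made of these counts, each of which rests on few genes. The share of all tested genes apart from native on both remodelled matrices was not counted. The median log2 fold of the members was 0.13 on MMP1-remodelled and 0.07 on MMP13-remodelled matrix, and that of all tested genes 0.02 and 0.01. The native libraries enter both comparisons, so the folds on the remodelled matrices are not independent. Together the members took 1.06% and 1.27% of reads on native, 1.25% and 1.23% on MMP1-remodelled and 1.29% and 1.14% on MMP13-remodelled matrix.

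The members differed in how their values varied over the 6 libraries, counting error included. Likeness was measured as the root mean square difference of centred log2 values, over the 6 libraries, among tested genes of at least 100 units on average. Among the members, Tuba1a and Tubb5 were closest, at 0.107, with Tuba1a and Tuba1b next at 0.108, and Stmn1 and Tuba1c farthest apart, at 0.345. Each member was set against 473 other such genes, or 474 for Stmn1, whose own mean of 83.4 units lies under that minimum. Those most like Vim were Ltbp2 (0.064), which encodes a protein associated with ECM fibrils, and the myosin gene Myo1c (0.076). The GTPase gene Arf1 (0.040) and the helicase gene Eif4a1 (0.049) were most like Tuba1a, and the ribosomal protein gene Rps6 (0.040) and the ribosome-associated scaffold gene Gnb2l1 (0.059) most like Tuba1b. For Tuba1c they were Ppp1r14b (0.064) and Arl1 (0.078), for Tubb5 the gelsolin gene Gsn (0.062) and Eef1b2 (0.070), and for Tubb6 the closest was Npc2 (0.053). Stmn1 had no neighbour as close, with Rpl8 at 0.100 and the calpain subunit gene Capns1 at 0.143. It also had the fewest reads of the members, from 37 to 121 a library. The part of counting error in these differences was not tested. The neighbours named are the closest of 473 or 474 genes over 6 libraries, and likeness was not put to a test.

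Further genes of both filament systems were taken from 10 lists that held 158 genes, of which 140 were in the table and 106 were tested. By limma 0 of the 106 passed in any comparison, and edgeR and DESeq2 called 0 of them too. At an unadjusted p under 0.05 limma gave 6 on MMP1-remodelled against native matrix (5.66%), 13 on MMP13-remodelled against native matrix (12.3%) and 4 between the remodelled matrices (3.77%). Over all tested genes these shares were 8.24%, 8.05% and 5.22%. EdgeR gave 7, 11 and 3 of the 89 it tested, and DESeq2 gave 5, 6 and 2. For edgeR and DESeq2 the shares over all genes were not counted. In each list genes of positive and negative fold were mixed. The median log2 fold of the 106 was 0.01 on MMP1-remodelled and -0.02 on MMP13-remodelled matrix.

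The other alpha- and beta-tubulin genes were mostly low or without reads. Tubb4b, a broadly expressed beta-tubulin gene, stood between 184 and 204 units in all libraries, with a log2 fold of 0.07 (95% interval -0.30 to 0.45) on MMP1-remodelled and 0.015 (-0.36 to 0.39) on MMP13-remodelled matrix. Tubb2a had 32.8 and 29.4 units on native, 33.6 and 38.4 on MMP1-remodelled and 52.9 and 40.3 on MMP13-remodelled matrix (log2 fold 0.56 on the latter, adjusted p of 0.75 by limma). Of the neuronal beta-tubulin Tubb3 there were at most 2 reads in a library, and Tuba8 had 1 read in all libraries together. In total 4 of the 11 listed genes of this kind were tested and 0 passed. The stathmin relatives Stmn2, Stmn3 and Stmn4 had at most 5 reads in a library and were not tested.

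Microtubules are nucleated by gamma-tubulin, whose gene Tubg1 had 54.7 and 58.1 units on native matrix, 39.4 and 31.2 on MMP1-remodelled and 27.2 and 42.0 on MMP13-remodelled matrix. The 4 values from remodelled matrix lay below both native ones, with log2 folds of -0.67 and -0.72 and adjusted p of 0.64 and 0.59 by limma. Taken singly, these comparisons had 18.8% and 18.6% of all tested genes below native without overlap. The next gene of that list, Tubgcp3, ranged from 8.82 to 28.0 units with no such order. Of the 18 tested genes that fold tubulin, 7 had a positive and 11 a negative log2 fold in each comparison with native matrix, and 0 passed. The tubulin cofactor gene Tbca stood at 132 and 186 units on native matrix and between 193 and 213 units on the remodelled ones (log2 folds 0.35 and 0.37), and the chaperonin subunit gene Cct4 at 207 and 174 units against 143 to 168 (-0.31 and -0.29). Another chaperonin subunit gene, Cct8, named after its values were seen, had 54.7 and 87.5 units on native, 71.6 and 63.6 on MMP1-remodelled and 94.1 and 131 on MMP13-remodelled matrix. Its log2 fold between the remodelled matrices was 0.71 (adjusted p of 0.80 by limma).

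Genes for proteins on microtubules were mixed. The plus-end tracking gene Mapre1 ranged from 73.0 to 158 units and Map4 from 70.5 to 97.1 units, with both groups on remodelled matrix overlapping native for Mapre1. Among depolymerising and severing enzymes, Kif2c (11.8 to 42.0 units) was too low for small folds to show. Sirt2, which encodes a tubulin deacetylase among other activities, had 65.6 and 86.0 units on native matrix, 32.1 and 58.8 on MMP1-remodelled and 36.8 and 50.4 on MMP13-remodelled matrix. Its log2 folds were -0.77 and -0.79, with adjusted p of 0.44 and 0.43 by limma. Ttll12, the next of that list, had log2 folds of 0.44 and 0.27.

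Among motor genes, the dynactin subunit gene Dctn2 had log2 folds of 0.43 and -0.0049, and the dynein light chain gene Dynll2 of -0.34 and -0.47. The dynactin subunit genes Dctn1, Dctn3 and Dctn6 were named after their values were seen. Dctn1 had 55.9 and 83.8 units on native, 51.1 and 76.8 on MMP1-remodelled and 36.8 and 35.3 on MMP13-remodelled matrix (log2 folds -0.13 and -0.91, adjusted p of 0.96 and 0.28 by limma). Dctn3 had log2 folds of -0.81 and -1.05, and Dctn6 of -1.75 and -0.98, the latter gene at 26.7 and 34.7 units on native matrix and 7.30 to 22.1 on the remodelled ones. None of these 4 dynactin genes passed. The motor gene Kif11 was also named after its values were seen. On MMP13-remodelled against native matrix it had the smallest adjusted p of the 106 listed genes (0.12 by limma). Its log2 fold there was -2.42 (interval -3.83 to -1.01). It was low, with 14 and 21 reads on native, 9 and 11 on MMP1-remodelled and 13 and 0 on MMP13-remodelled matrix. The fold on MMP13-remodelled matrix thus rests in part on a library with 0 reads and on the value added before the log. Kif11 was not among the genes that edgeR or DESeq2 gave there at an unadjusted p under 0.05. Whether it was among the 89 listed genes that edgeR tested is not shown.

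On the intermediate filament side, the nuclear lamin gene Lmna had 173 and 201 units on native matrix, 256 and 293 on MMP1-remodelled and 284 and 208 on MMP13-remodelled matrix. All 4 values from remodelled matrix lay above both native ones, where 19.6% and 18.9% of all tested genes did so in the single comparisons. The log2 fold was 0.55 (95% interval 0.20 to 0.90) and 0.38 (0.03 to 0.73), with adjusted p of 0.21 and 0.55 by limma. Nestin, encoded by Nes and able to assemble with vimentin, ranged from 59.6 to 124 units and overlapped between groups (log2 folds 0.34 and 0.12). The epithelial keratin genes Krt8 and Krt18 and the muscle filament gene Des held at most 22, 2 and 8 reads in a library. Plec, which encodes plectin, a linker of vimentin to other structures, was named after its values were seen. It had 164 and 199 units on native, 139 and 151 on MMP1-remodelled and 114.0 and 113 on MMP13-remodelled matrix, so that all 3 groups were apart. Its log2 folds were -0.32 and -0.67, with adjusted p of 0.74 and 0.18 by limma. Of the more abundant genes of that list, Flna (log2 folds 0.07 and -0.03) and Ywhaz (0.15 and -0.02) overlapped between native and MMP13-remodelled matrix.

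**Figure D4:**
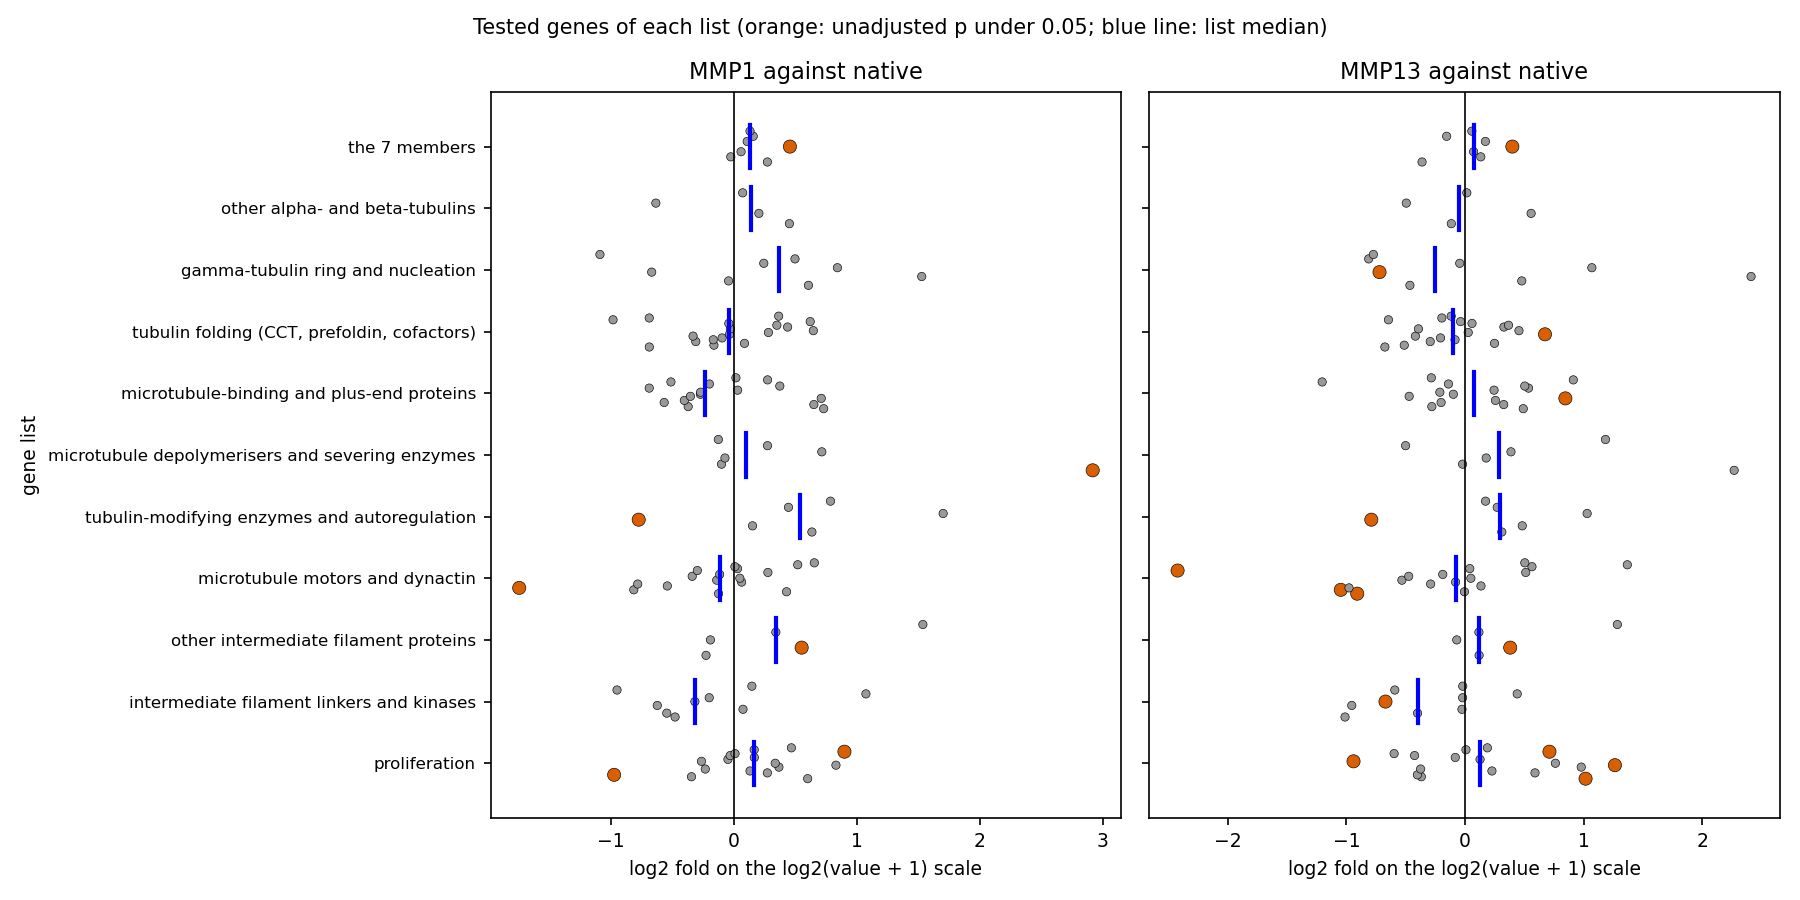
Log2 fold on the log2(value + 1) scale (x axis) of each tested gene in the 7 members and the 10 lists (y axis), against native matrix. Orange points had an unadjusted p under 0.05 by limma, none passed after adjustment, and blue lines mark list medians, 0.13 and 0.07 for the members.

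A list of 17 proliferation genes was set beside Stmn1, since stathmin is more abundant in dividing cells. All 17 were tested and 0 passed in any comparison. On MMP1-remodelled matrix 11 had a positive and 6 a negative log2 fold against native, on MMP13-remodelled matrix 10 and 7, and between the remodelled matrices 8 and 9, with medians of 0.16, 0.13 and -0.02. By limma 2, 4 and 0 of the 17 had an unadjusted p under 0.05 in that order, against 8.24%, 8.05% and 5.22% of all tested genes. The 2 on MMP1-remodelled matrix, named after their values were seen, were Tk1 (log2 fold 0.90) and Ccnb1 (-0.97). The 2 genes of highest mean level both had negative folds against native. The histone variant gene H2afz had log2 folds of -0.23 and -0.37 and the replication clamp gene Pcna of -0.03 and -0.43. The part of proliferation in the Stmn1 values was not tested.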

How the data were processed

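Libraries of 3' ends from 6 samples were sequenced with a molecular identifier of 8 nucleotides, per the labels. The submitters' processing notes name bcl2fastq, TopHat and DESeq, without versions, and the build rn5. For the counter, annotation, strand and collapsing of identifiers, nothing is given in the sources used here. What the authors deposited is a normalised signal: gene reads divided by 1 size factor per library. All values above 0 (100%) were whole multiples of the library's smallest value within 0.01 reads, which gave back whole reads.

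Genes with at least 5 units in at least 2 libraries were tested with limma 3.58.1 (R 4.3.3) after a log2(value + 1) transform of the deposited values, with an intensity trend, 3 groups and no replicate block. The 3 residual degrees of freedom were pooled over genes to 21852, because limma estimated an infinite prior. A gene whose replicates scatter more than genes of its level thus gets too small an error. The recovered reads were also tested with edgeR 4.0.16 and DESeq2 1.42.0. Other alternatives changed the pseudocount, the filter, the scaling, the groups fitted, the error model and the libraries used. The scripts were tested on simulated counts. Members, lists and tests were chosen with earlier results of these data known. The text names all 7 members, the 2 tested genes of highest mean level per list, any gene of a list that passed, and the 2 genes most like each member. Of the genes these rules take, 2 are not reported here. Genes of the lists named for a fold after their values were seen are marked as such. The text also names cell type markers and genes with few or no reads outside these rules, without such a mark. Among these are Tubb3, Tuba8, Stmn2, Stmn3, Stmn4, Krt8, Krt18 and Des. Start windows matched 7 of 7 members by symbol.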

Additional observations from a re-analysis of the deposited data

Results flagged for a closer look

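The log2 fold of Stmn1 against native was positive on MMP1-remodelled matrix and negative on MMP13-remodelled matrix. The folds were 0.27 (interval -0.25 to 0.80) and -0.36 (-0.89 to 0.16), and each interval spanned both signs. Both libraries on MMP1-remodelled matrix (107 and 96.0 units) lay above both native libraries (76.6 and 91.3), and both on MMP13-remodelled matrix (67.7 and 62.1) lay below them. The difference between these effects is the comparison of the remodelled matrices, with a log2 fold of -0.63 (SE 0.27, adjusted p of 0.82 by limma over 7284 genes), so it did not pass. The lowest value rested on 37 reads. Taken singly, 19.6% of all tested genes lay above native without overlap on MMP1-remodelled matrix. On MMP13-remodelled matrix 18.6% lay below native without overlap. The share of genes with both orders, as in Stmn1, was not counted.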

How the results depend on the processing

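The count of members called was 0 in each comparison under all 18 alternatives, among them the replicate block. Without the intensity trend, and with each gene's own spread, 0 of all 7284 genes were called in each comparison. A count of 0 members follows from that. Over all genes edgeR called 10, 32 and 2, and DESeq2 called 1, 26 and 1. These are in the order MMP1 against native, MMP13 against native and MMP13 against MMP1. The labels do not say that a replicate number marks a shared day or batch, so no pairing was used in the main test. Deviations of same-numbered libraries correlated over genes with r of 0.006 for native with MMP1. For native with MMP13 r was -0.07, and for MMP1 with MMP13 it was -0.04. Over the 481 genes of at least 100 units on average, r was -0.07, -0.08 and 0.03 in the same order. These values do not show whether same-numbered libraries shared a day or batch. Of the 21 log2 folds of members, 12 kept their direction under all 18 alternatives and 9 did not. With quantile normalisation, which sets a value by its rank, the log2 fold of Vim was -0.14 on both remodelled matrices against native and 0 between them. Each library was left out in turn, which can change a fold only for libraries of the groups compared. The log2 fold of Vim then ran from -0.050 to 0.31 (MMP1 against native) and -0.12 to 0.24 (MMP13 against native). For MMP13 against MMP1 the fold ran from -0.24 to 0.10. That of Tuba1b ran from -0.13 to 0.24, -0.11 to 0.26 and -0.085 to 0.11 in the same order. Tuba1a ran from -0.11 to 0.053 on MMP1-remodelled matrix, Tubb6 from -0.34 to 0.032 on MMP13-remodelled matrix, and Tubb5 from -0.015 to 0.14 between the remodelled matrices. Vim and Tuba1b changed sign against native on both matrices without native replicate 1. For all these the cause was not tested. Over all alternatives the adjusted p of Tuba1c ran from 0.29 to 1.00 on MMP1-remodelled and from 0.38 to 1.00 on MMP13-remodelled matrix, and that of Stmn1 between the remodelled matrices from 0.58 to 1.00. At these depths Stmn1 rested on 37 to 121 reads a library, and a log2 fold under 0.99 would not have been called for it in any comparison.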
